A study of Hordeum vulgare with 12 samples.

Results

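Short RNAs of 18, 19 and 20 nt that matched no miRBase entry were examined in barley shoots grown with too little or with enough phosphate. They are the 98 sequences of these lengths among the 199 shoot sequences deposited without a miRBase match. The other 101 were 21 to 25 nt long. These rows were deposited because their level had already differed between the low-Pi and control shoots, by a Bonferroni threshold that the authors set on these same libraries. Direction, size, abundance and overlap are therefore described here without a test, and the number that changed is no result. None of the 98 was identical to a sequence in the shoot table of miRBase matches.

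The plants were of the barley (Hordeum vulgare) line Rolap. Low-Pi plants grew in a mix of sand and soil holding 8 mg P per kg, and control plants grew in that soil with 60 mg P per kg added. Shoots were taken on day 23, and each of the 3 libraries of a group came from 1 pot of 3 plants. Levels are reads per 1000000 reads kept (RPM), so each is a share of the RNA of 18 to 25 nt in a whole shoot. In such bulk samples fewer cells of a type and less RNA per cell cannot be told apart.

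Short RNAs that are not miRNAs come from many sources. Transfer RNAs (tRNAs), which carry amino acids to the ribosome, are cut in plants into pieces called tRNA fragments. Ribosomal RNA and messenger RNA also leave pieces, and a single parent RNA often gives a ladder of forms that differ by a base or more at either end. Plants short of phosphate take up, move and recycle it, and nucleic acids are one of its stores in the cell.

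The 98 members were therefore sorted by overlap. Members belong to the same overlap group when they share an exact run of 14 nt on the same strand, or differ by 1 inserted, deleted or replaced base. This gave 43 groups, of which 12 held at least 2 members (67 in all) and 31 held a single one. Within each of the 12 groups all members were higher under low Pi. So were 93 of all 98 members, which makes such agreement likely in advance. The sequences that carry most reads are shown first, read 5′ to 3′ as DNA letters. In groups 1 and 8 the capitals mark AGCTCAG, a run common in the D arm of tRNAs. In group 5 they mark the single position at which its variants differ, and in group 3 the last base, which varies.
Group 1, most abundant: gggcctgtAGCTCAGagga
Group 8, most abundant: gcgcctgtAGCTCAGcgg
Group 5, most abundant: atcagagtGgcgcagcgga
Group 3, most abundant: taaaaaagattgagccgaaT
Group 3, shorter form: aaaaagattgagccgaaT

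Groups with staggered ends are shown as the joined sequence of all overlapping deposited forms, including longer ones of 21 to 25 nt. Here the capitals mark the most abundant member, so that the small letters show how far other forms reach.
Group 2: gttCGGTGTTTTGATGATCCCt
Group 4: aaaATCGTCTTTACATCGGATG
Group 6: cgttaTTAATACTTGGGCTGATAtc
Group 7: taATAGTCGGTGCTGCTGCACa
Group 9: cttcTGCGGCGATCGGATTGCACT
Group 10: TTTGGTCAAGAGGAAGAGAc
Group 11: ttgaCCGGAAGACCTAGAGCTA
Group 12: aAAGGGCATTGAACGAGAA

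Library totals lay between 10565625 and 14644436 reads. A count of 3 reads corresponded to between 0.205 and 0.284 RPM, and intervals and such limits cover counting error only. Low-Pi replicate 6 stood apart in the miRBase table. Chi-square per degree of freedom was 130 against replicate 4 and 158 against replicate 5, while all other pairs within a group lay between 15.6 and 25.5. The summed level and the values of some groups and members are also given without it. SDs are between pots.

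The members took up a much larger part of the low-Pi libraries. They held 5.02%, 6.60% and 4.48% of all reads in low-Pi replicates 4, 5 and 6, against 1.18%, 1.24% and 0.698% in control replicates 16, 17 and 18. Their summed level was 53663 ± 10985 RPM (SD, n = 3) under low Pi and 10400 ± 2973 RPM in control, a ratio of 5.16, or 5.59 without low-Pi replicate 6. A single member made most of this difference. Without it the sums were 3749 ± 484 and 928 ± 52.1 RPM, a ratio of 4.04.

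Of the 98 members, 93 were higher and 5 lower under low Pi, and in all 98 the 3 low-Pi libraries did not overlap the 3 controls. For scale, 18% of the 206 tested 18- to 20-nt sequences with a miRBase match were higher without overlap in the same libraries and 9.71% were lower (16.7% and 11.4% of the 484 tested at all lengths), but the members had been chosen by this very contrast. The median ratio of low-Pi to control mean was 6.01 over the members, with a range from 0.179 to 71.8. Among the tested miRBase sequences of all lengths (484) the median ratio was 1.04, and among those of 18 to 20 nt it was 1.03. Most members were scarce. Only 45 exceeded 10 RPM under low Pi and 8 exceeded 100 RPM, while 39 lay below 1 RPM in control.

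**Figure D1:**
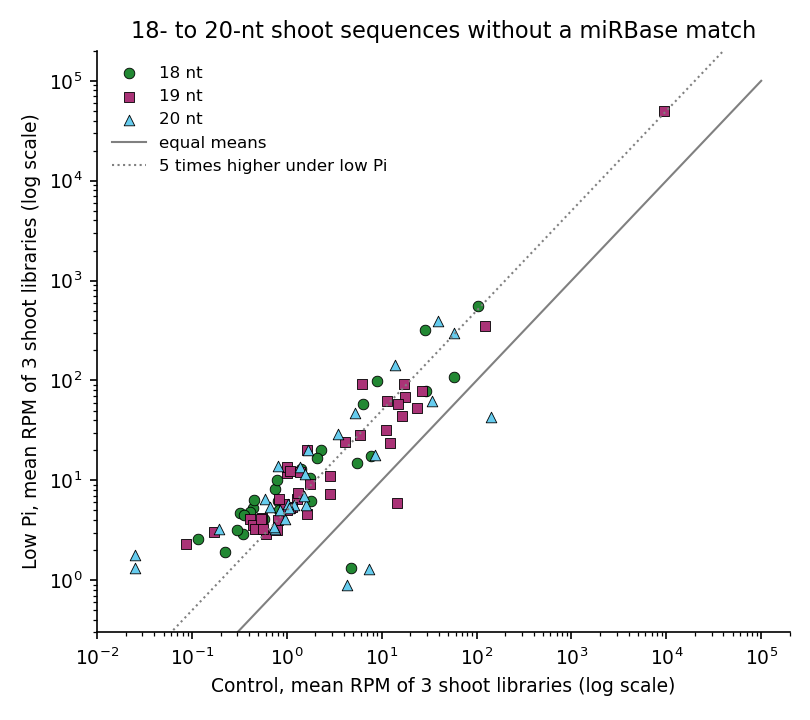
Mean RPM of each of the 98 members in 3 control shoot libraries (x axis) and 3 low-Pi shoot libraries (y axis), both on log scales, with symbols for 18, 19 and 20 nt. The 93 members above the solid line of equal means were higher under low Pi and the 5 below it lower; a single 19-nt sequence lies far to the upper right at 49914 RPM.

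In summed level the 3 lengths differed mainly by that single sequence. The 28 members of 18 nt summed to 1389 ± 257 RPM under low Pi and 267 ± 31.7 in control. The 42 of 19 nt, which include it, summed to 51114 ± 10605 and 9801 ± 2969 RPM. The 28 of 20 nt summed to 1160 ± 198 and 331 ± 28.3 RPM, with 25 higher and 3 lower. The median ratio of single members was 8.67 at 18 nt, 5.30 at 19 nt and 5.86 at 20 nt. Just beyond the length limit, the 26 deposited sequences of 21 nt had 20 higher and 6 lower, with sums of 962 ± 111 and 852 ± 32.3 RPM that overlapped between the groups. All 101 sequences of 21 to 25 nt together held 1929 ± 183 RPM under low Pi and 2239 ± 74.4 in control (73 higher, 28 lower). The lower sum rested on the 24-nt agggatgtagcgcagcttggtagc, the longer sequence with the largest difference. Without it, a choice made after seeing the data, the other 100 held 1752 ± 191 and 1749 ± 29.5 RPM, which overlapped. The median ratio of the longer sequences was 5.25 over the 95 with control reads.

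Overlap group 1 was built on the most abundant member, gggcctgtagctcagagga. In its account of this sequence the study matched it to a gene for the arginine tRNA trnR-ACG, and to a protein-coding transcript as well. Its level was 46454, 61734 and 41554 RPM in low-Pi replicates 4, 5 and 6 and 10864, 11443 and 6108 RPM in control replicates 16, 17 and 18. The lowest low-Pi library thus stood well above the highest control, and control replicate 18 was the lowest of all. The means were 49914 ± 10525 and 9471 ± 2928 RPM, a ratio of 5.27. This one sequence made up between 92.5% and 93.6% of all member reads in the low-Pi libraries and between 87.5% and 92.4% in the control ones.

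The other 20 members of group 1 were near-copies of it. A form without the first base, ggcctgtagctcagagga, was the second most abundant of all members, at 491, 719 and 457 RPM under low Pi and 124, 114 and 71.0 RPM in control. Its reads were 1.11% ± 0.0544 of those of the full form under low Pi and 1.10% ± 0.0908 in control. A further 17 members differed from the full form by 1 replaced base and 2 lacked 1 internal base. With 57 single replacements possible, 17 at 14 positions passed into the deposited table.

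The single-base variants, chosen by the same contrast, rose together with the full form. Positions are counted from 1 at the 5′ end, and each token gives the base of the most abundant form first. G3A stood at 0.185% of the full form's reads under low Pi and 0.185% in control, next to G10T (0.142% and 0.193%), C5A (0.126% and 0.122%) and G10C (0.119% and 0.163%). C5T and C5G made all 3 replacements of position 5 present. The rarer ones were C4A, G7A, T8C, C11A, T12C, C13A, A14G, A16G and G17A, each with a mean of no more than 0.0185% in either group. Of the 2 deletions, 1 removed the C of positions 4 to 5 and the other the G of positions 17 to 18.

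For 17 of these 20 near-copies the share relative to the full form overlapped between low-Pi and control libraries. In 2 of them it was lower in every low-Pi library: G1T was at 0.0958%, 0.0966% and 0.135% under low Pi against 0.213%, 0.179% and 0.434% in control, and G15T was at 0.0228% ± 0.00438 against 0.0306% ± 0.00241. The deletion at positions 4 to 5 was higher in every low-Pi library, but rested on 7, 5 and 1 control reads. Together the 20 amounted to between 1.95% and 2.11% of the full form's reads in low-Pi libraries and between 1.95% and 2.64% in control ones. The level of group 1 was therefore set almost wholly by its full form. Near-copies whose level did not change would be missing here, so the overlap of shares is partly set by the choice of rows. Whether the near-copies are separate RNAs or misread copies of the full form was not tested.

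Group 5 also held single-base variants, but much more frequent ones and all at the same place. Its most abundant member, atcagagtggcgcagcgga, was listed under tRNA, and under protein-coding transcripts, in the study's supplementary annotation. The study's text, by contrast, states that no changed shoot sequence was annotated to tRNA, so the tRNA classes given here rest on that supplementary list and, for group 1, on the study's account of it. Its level was 305, 363 and 391 RPM under low Pi and 123, 142 and 98.6 RPM in control, a ratio of 2.91. The groups did not overlap, and control replicate 18 was again the lowest. All 4 other members differed from it at the same place, position 9: G9T, G9C, G9A and a form lacking 1 G at positions 9 to 10.

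The 4 variants of position 9 made up a large part of the group. G9T stood at 21.9% ± 1.64 of the reads of the most abundant form under low Pi and 21.9% ± 2.58 in control. The form lacking the G stood at 22.4% ± 0.725 and 24.1% ± 2.00, G9C at 12.4% ± 0.670 and 13.4% ± 1.41, and G9A at 9.03% ± 0.641 and 9.12% ± 0.174. Each share overlapped between the groups. Summed over the variants they reached between 63.8% and 66.8% under low Pi and between 63.5% and 72.0% in control. The make-up of group 5 thus overlapped between conditions. Its level did not, but the rows had been chosen by that very contrast. This choice bears on the make-up too, because a variant whose level did not change would be missing here.

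**Figure D2:**
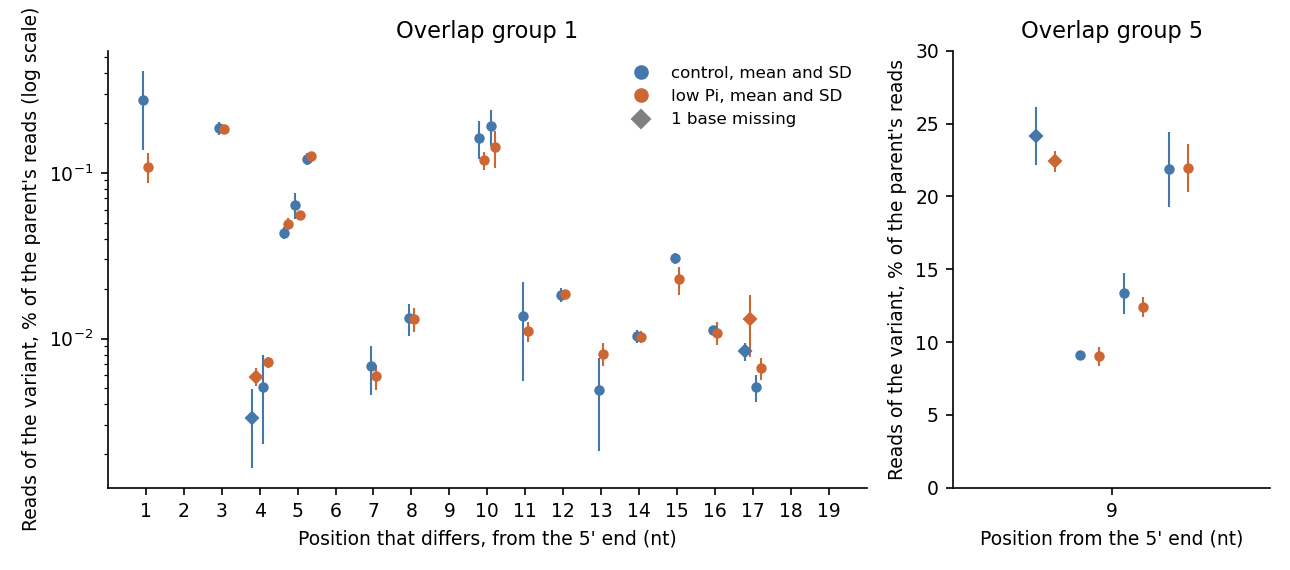
Reads of each single-base variant as a percentage of the reads of its group's most abundant form, by the position that differs, for group 1 (left, log scale) and group 5 (right, linear scale from 0). Points are means of 3 control (blue) or 3 low-Pi (orange) shoot libraries with SD, diamonds mark a missing base; group 1 variants lie below 0.5%, while the 4 variants of position 9 in group 5 lie between 9.03% and 24.1%.

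Group 8 resembled group 1 in sequence but changed less. Its most abundant member, gcgcctgtagctcagcgg, which found no match among the study's transcripts, was at 113, 110 and 99.9 RPM under low Pi and 59.2, 53.7 and 61.5 RPM in control, a ratio of 1.85. A form shifted by 1 base, cgcctgtagctcagcgga, had a ratio of 2.30 and a close relative, gcgtctgtagctcagcgga, 2.55. Summed, the 3 members held 133 ± 6.95 and 68.6 ± 4.35 RPM, a ratio of 1.93 that was the smallest of the 12 groups. The spread was small in both groups of libraries, which did not overlap.

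Group 3 was the second most abundant and matched none of the study's transcripts. Summed, its 6 members held 1121, 1104 and 705 RPM in low-Pi replicates 4, 5 and 6 and 109, 82.3 and 85.2 RPM in control replicates 16, 17 and 18. The means were 977 ± 236 and 92.2 ± 14.7 RPM, a ratio of 10.6, or 12.1 without low-Pi replicate 6. The leading 20-nt form, taaaaaagattgagccgaat, was at 447, 481 and 246 RPM against 43.5, 36.8 and 35.9 RPM. The 18-nt form aaaaagattgagccgaat, which starts 2 bases later, was at 391, 387 and 180 RPM against 34.7, 23.9 and 26.2 RPM. In both forms replicate 6 was the lowest of the low-Pi libraries and still stood above every control.

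The last base of group 3 was read as T, A or C. Among the reads of its 20-nt forms, those ending in A (T20A relative to the leading form) made up 23.3%, 19.5% and 39.8% in low-Pi replicates 4, 5 and 6 and 26.4%, 25.9% and 23.6% in the controls. Among the 18-nt forms the A-ended part was 22.5%, 18.6% and 34.4% under low Pi and 26.4%, 19.1% and 24.8% in control. In both lengths replicate 6 held the largest A-ended part and replicate 5 the smallest. The A-ended 20-nt form was therefore not lowered in replicate 6 as the T-ended one was, at 139, 120 and 168 RPM in low-Pi replicates 4, 5 and 6. Without replicate 6 the mean A-ended part of the 20-nt forms under low Pi was 21.4%, against 25.3% ± 1.52 in control. The C-ended form was at 2.09% ± 0.305 and 2.97% ± 0.931.

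**Figure D3:**
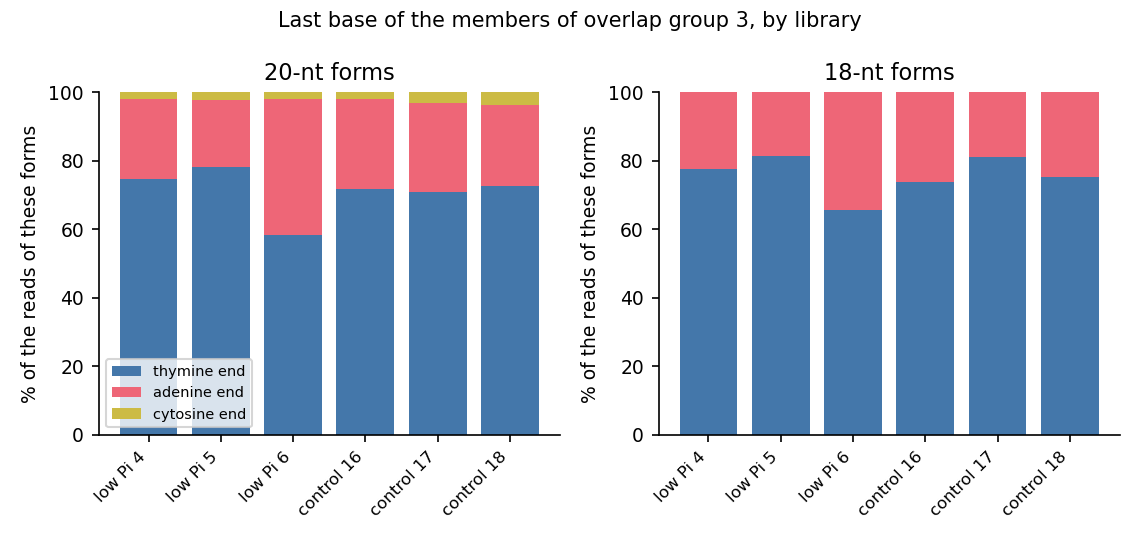
Last base of the members of group 3, as a percentage of the reads of its 20-nt forms (left) and 18-nt forms (right), with 1 stacked bar for each low-Pi and control shoot library. In low-Pi replicate 6 the forms ending in adenine reach 39.8% and 34.4%, above all other libraries in each panel.

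Groups 2, 4, 6 and 7 were ladders, in which members overlapped exactly but started and ended at different bases. Their most abundant members all matched protein-coding transcripts in the study's annotation, and those of groups 2, 4 and 6 also non-translating ones. Group 2 had 9 members and, with 3 longer forms, covered 22 nt with 4 start points and 4 end points. Its members summed to 104, 119 and 79.9 RPM under low Pi and 9.91, 10.9 and 10.3 RPM in control, a ratio of 9.72. Every low-Pi library was far above the controls, which lay close together. The form with the highest mean over the 6 libraries, cggtgttttgatgatccc, held 19.9 ± 7.04 and 2.31 ± 0.144 RPM, and the ratio of single members ran from 6.12 to 12.2.

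Group 4 was the most abundant ladder, with 6 members and 1 longer form over 22 nt, 5 start points but only 2 end points. Its sum was 228, 234 and 222 RPM under low Pi and 20.4, 18.9 and 24.4 RPM in control, a ratio of 10.7. The leading form, atcgtctttacatcggatg, stood at 108, 89.6 and 81.5 RPM against 6.86, 3.92 and 7.61 RPM, a ratio of 15.2. The form with 1 more base at its start, aatcgtctttacatcggatg, had 40.8%, 53.6% and 62.1% of the leading form's reads under low Pi and 70.7%, 138% and 72.8% in control. This part was lower in every low-Pi library. The form with 1 base less at its start, tcgtctttacatcggatg, stood at 16.0%, 12.9% and 12.5% against 13.04%, 33.3% and 27.2%, which overlapped. The ratios of the longer and the shorter start, 9.04 and 9.16, both lay below that of the leading form.

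Group 6 had 5 members and 3 longer forms over 25 nt, with 4 start points and 3 end points. Its members summed to 41.0, 37.1 and 33.1 RPM under low Pi and 5.81, 6.45 and 7.61 RPM in control, a ratio of 5.60. The leading form, ttaatacttgggctgata, began at the latest start point and was at 16.8 ± 4.10 and 2.06 ± 0.322 RPM, a ratio of 8.15. The other member with that start, ttaatacttgggctgatatc, had a ratio of 4.79, within the range from 3.48 to 7.61 of the forms that began further upstream. Group 7 had 4 members and 1 longer form over 22 nt and the largest ratio of the 12 groups, 14.1. It summed to 44.8, 59.7 and 36.0 RPM under low Pi and 2.31, 4.65 and 3.01 RPM in control. Its leading form, atagtcggtgctgctgcac, was at 20.2 ± 5.97 and 1.62 ± 0.621 RPM. The form lacking its last base, atagtcggtgctgctgca, had a ratio of 22.6, which rests on 4 control reads.

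**Figure D4:**
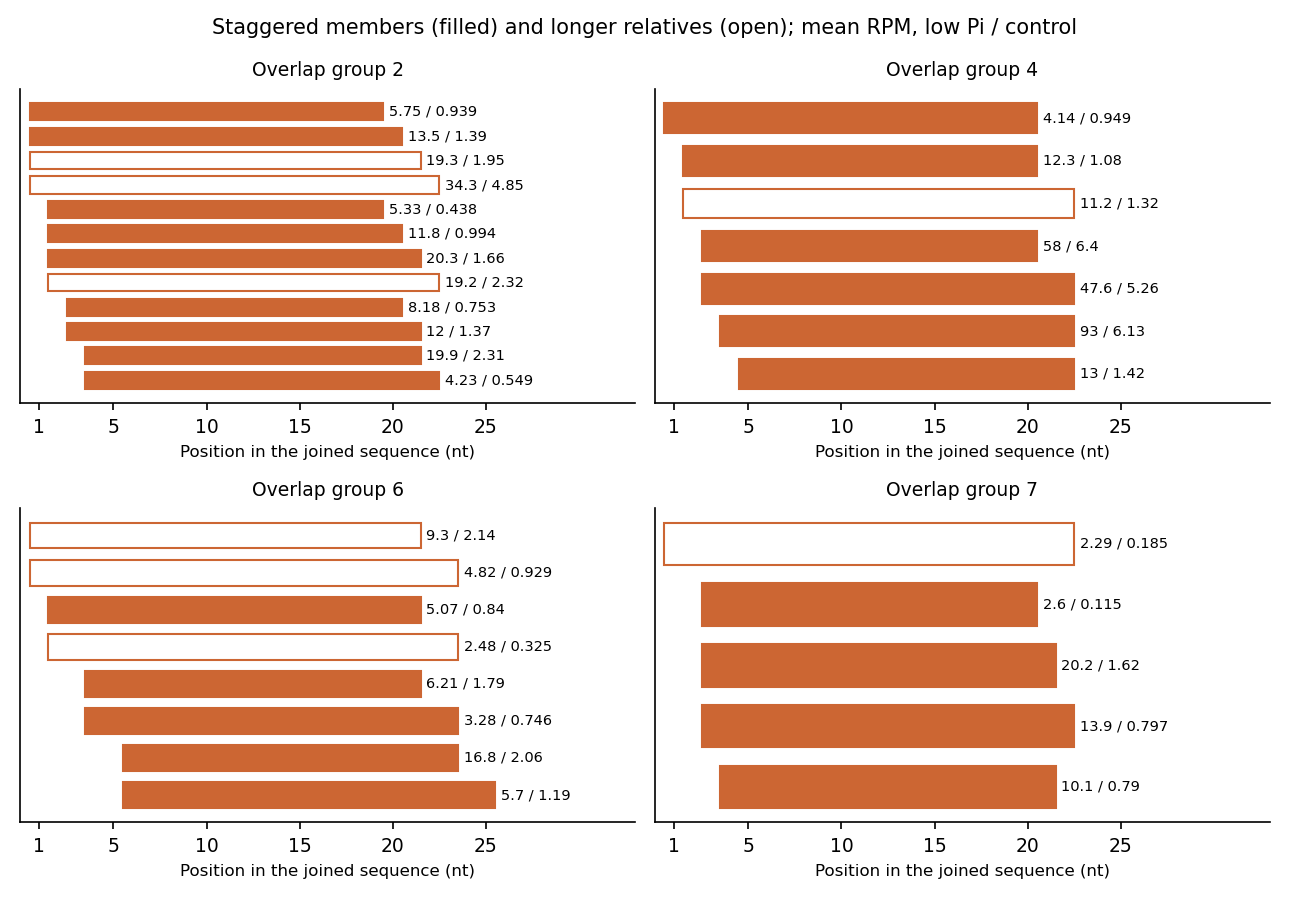
Start and end of every deposited form of groups 2, 4, 6 and 7 along the joined sequence (x axis, nt), with filled bars for members and open bars for forms of 21 to 23 nt. Numbers give mean RPM under low Pi and in control (n = 3 each); every form shown was higher under low Pi, while start and end points varied.

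The remaining 4 groups held 2 members each and were less abundant. Group 9, led by tgcggcgatcggattgcact, summed to 35.6 ± 12.1 RPM under low Pi and 3.91 ± 0.826 in control, a ratio of 9.10, or 10.8 without replicate 6. Group 10, led by tttggtcaagaggaagaga, stood at 13.1 ± 3.13 and 2.88 ± 0.294 RPM (ratio 4.56). Group 11, led by ccggaagacctagagcta, stood at 13.7 ± 3.15 and 2.30 ± 0.204 RPM (ratio 5.94), and its 2 members and 2 longer forms had 4 start points but ended at the same base. Group 12, led by aagggcattgaacgagaa, stood at 6.22 ± 0.819 and 0.467 ± 0.161 RPM (ratio 13.3). In each of the 4 the low-Pi libraries lay above all controls, and in groups 9, 10 and 11 replicate 6 was the lowest of them.

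**Figure D5:**
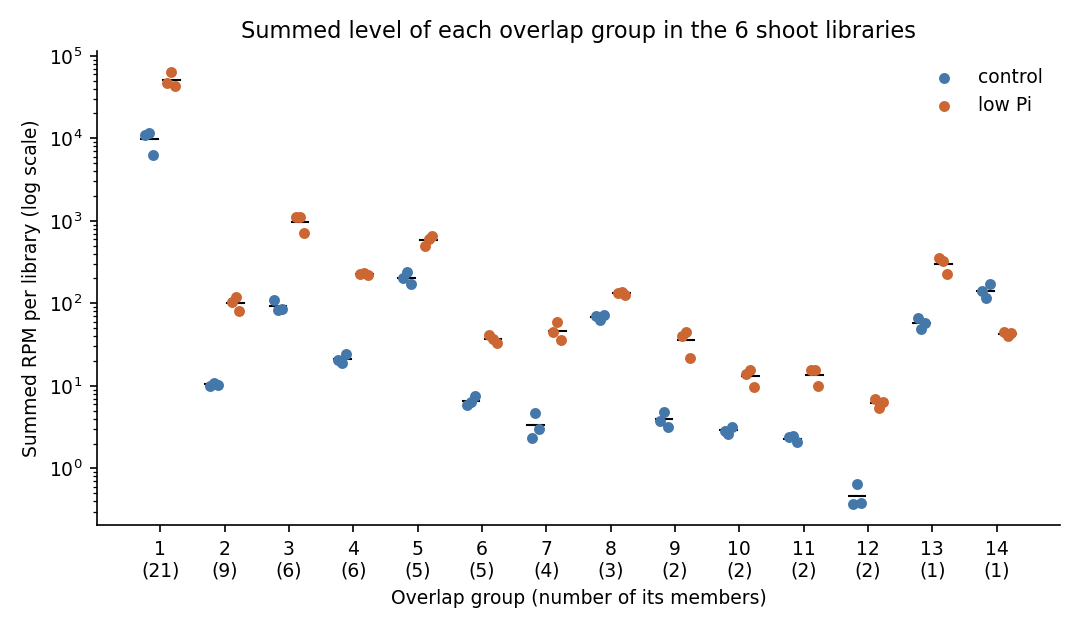
Summed RPM of overlap groups 1 to 12 and of the 2 most abundant single members (13 and 14) in each shoot library, on a log scale, with the number of members in brackets. Points are the 3 control (blue) and 3 low-Pi (orange) libraries and bars their means; low-Pi points lie above control points in groups 1 to 13 and below them in 14.

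The 31 members that overlapped no other ranged from 0.894 to 302 RPM under low Pi, with 26 higher and 5 lower. The most abundant, gcaagatattgggtattttg, matched a protein-coding transcript in the study's annotation. It was at 356, 321 and 227 RPM under low Pi and 65.97, 49.2 and 57.4 RPM in control, a ratio of 5.24, or 5.89 without replicate 6. Every low-Pi library was above every control. The median ratio of the 26 higher ones was 6.63, and 17 of the 31 lay under 1 RPM in control.

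All 5 members that were lower under low Pi were single ones. The supplementary annotation, which the study's text contradicts for tRNAs, put gtgtcgggggttcgaatcc, aggatagctcagttggtaga and atgtagcgcagcttggtagc among tRNAs, ctcgggggtcccggcccc among ribosomal RNAs (and other classes), and gtgccgtccgaattgtagtc among protein-coding transcripts only. They are shown because they go against the direction of most members. The capitals mark GTTCGA, a run common in the T arm of tRNAs.
Lower 1: gtgccgtccgaattgtagtc
Lower 2: gtgtcggggGTTCGAatcc
Lower 3: aggatagctcagttggtaga
Lower 4: atgtagcgcagcttggtagc
Lower 5: ctcgggggtcccggcccc

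Of these 5, gtgccgtccgaattgtagtc was by far the most abundant. It was at 44.9, 40.1 and 43.9 RPM in low-Pi replicates 4, 5 and 6 and 139, 116 and 170 RPM in control replicates 16, 17 and 18, a ratio of 0.304. The tRNA-matched gtgtcgggggttcgaatcc was at 5.46, 6.41 and 5.87 RPM against 16.1, 13.6 and 13.3 RPM, a ratio of 0.412. The lowest ratio of all members, 0.179, belonged to aggatagctcagttggtaga, at 1.30 ± 0.408 and 7.27 ± 0.691 RPM. The ratio of atgtagcgcagcttggtagc was 0.206 (0.894 ± 0.239 and 4.35 ± 0.272 RPM) and that of ctcgggggtcccggcccc 0.282 (1.33 ± 0.234 and 4.70 ± 0.490 RPM). Low-Pi and control libraries did not overlap in any of the 5. Of the members named here with a tRNA match, the leading ones of groups 1 and 5 were higher under low Pi and 3 single ones lower. The classes of the other members are not given here, so this is no count of tRNA pieces.

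Longer relatives moved the same way. Of the deposited 21- to 25-nt shoot sequences, 22 shared at least 14 nt with members of 14 groups, 18 of them higher and 4 lower, each in the direction of the members they overlapped. These rows passed the same threshold, so the shared direction is a description. The 24-nt agggatgtagcgcagcttggtagc, which contains the whole of the fourth lower member, was far more abundant than it, at 177 ± 20.1 RPM under low Pi and 490 ± 48.1 in control. The 21-nt ggtgtcgggggttcgaatccc, which contains the second, was at 44.3 ± 7.13 and 88.2 ± 8.74 RPM. No member overlapped another, or one of these longer sequences, on the opposite strand. Among shoot sequences matching miRBase, 5 of MIR9774 overlapped the member gcaagatattgggtattttg on the opposite strand and 2 on the same strand. Each of them had a mean of no more than 0.0544 RPM in either group.

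The largest ratios belonged to scarce members with very few control reads. The members shown are cgtcttcgacgtccgagttg and aagctcggattcgattaca, and agggctcctctttattggca with its nearest miRBase-matched shoot sequence beneath it, where capitals mark the base that differs.
Ratio on 1 control read: cgtcttcgacgtccgagttg
Ratio on 3 control reads: aagctcggattcgattaca
Near miR399 precursor: agggctCctctttattggca
miRBase-matched MIR399a//MIR399c precursor piece: agggctTctctttattggc

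The first, cgtcttcgacgtccgagttg, had 67 reads over the low-Pi libraries and 1 over the controls, a ratio of pooled reads of 65.1 with an exact 95% interval from 11.3 to 2608. The member agggctcctctttattggca had 50 reads and 1, a ratio of 48.6 (8.33 to 1956). Over 19 nt it differed by a single base from a piece of a miR399 precursor, with token C7T counted from its 5′ end; that piece itself had a mean of 0.0315 RPM under low Pi and no control read. The miR399 family is the best-known phosphate-starvation miRNA of plants and limits PHO2, which acts in the breakdown of phosphate transporters. Its 21-nt relative gggctcctctttattggcagg, in the same table, was at 2.46, 4.44 and 2.46 RPM under low Pi and had no control read. Next came aagctcggattcgattaca, with 85 reads and 3, a ratio of 27.5 (9.10 to 136). The fifth-largest was aaagggcattgaacgagaa of group 12, at 3.01 ± 0.413 and 0.169 ± 0.0867 RPM, a ratio of 17.8.

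Few members were also among the deposited root sequences, which had been chosen by their change in root. A member missing there may still be present in root. Of 1796 root sequences deposited without a miRBase match, 1 was identical to a member and 57 overlapped members of 10 groups on the same strand, 50 of them with a higher and 7 with a lower mean under low Pi in root. The study gives about the same share of all its root sequences as raised, so this split is no result about the relatives. Of the 7, gactccgtggcccaatgg differed little, at 137 ± 13.02 and 144 ± 15.6 RPM with overlapping libraries. The identical one, agtagaggtcgcgagagagc, was matched to ribosomal RNA by the study. It was at 17.96, 15.5 and 20.2 RPM in low-Pi shoots against 7.98, 8.33 and 9.02 RPM, and at 591, 783 and 546 RPM in low-Pi roots against 268, 345 and 213 RPM. The ratio was 2.12 in shoot and 2.32 in root, and neither organ's groups overlapped. Whether the organs differed was not tested, since both tables were selected on this contrast.

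Overlapping pieces did not always keep their direction between organs. Root pieces around gtgccgtccgaattgtagtc were lower as in shoot, with tgccgtccgaattgtagt at 311 ± 69.2 RPM under low Pi and 1428 ± 238 in control. By contrast, gtcaggatagctcagttggtagagc, which contains the third lower shoot member, was higher in low-Pi roots, at 305 ± 33.8 and 123 ± 14.8 RPM. The root sequence gcatgaaacagtcgactca was lower, with a ratio of 0.217 and 11.1 ± 0.641 RPM in control, while the shoot member it overlaps, cgagcatgaaacagtcgact, was higher, at 62.0 ± 6.04 and 33.9 ± 4.28 RPM. Of 18 root sequences around ctcgggggtcccggcccc, lower in shoot, 17 were higher in root. Around tccgatgattcatgataac, a member at 4.65 ± 0.649 and 1.63 ± 0.158 RPM in shoot, all 18 root relatives were higher, led by tccgatgattcatgataactcgacg at 2432 ± 526 and 525 ± 6.81 RPM. For both of these sets, higher was also the direction of most root sequences in the study. Among the groups with no root relative were groups 1, 2, 3 and 4. For such groups this says only that no such sequence was in the root table used here, which does not hold all root sequences.

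The members often ended in A. It was the last base in 60 of 98 (61.2%), and in 39 of the 77 outside group 1 (50.6%), against 34.7% of the 21- to 25-nt shoot sequences without a miRBase match and 20.4% of the 2120 shoot sequences of 18 to 20 nt that matched miRBase. The count is over distinct sequences, many of which overlap and share an end. First bases were more even, with G in 32.7%, A in 27.6%, T in 26.5% and C in 13.3%. Runs of bases, chosen with earlier results of these data known, were also counted on both strands of each sequence. AGCTCAG was found in 18 members (18.4%), 14 of them in group 1, against 0.990% of the longer shoot sequences and 0.142% of the miRBase ones. AGCGGA was found in 7 members (7.14%), against 1.98% and 0.142%, but all 7 were near-copies or shifted forms within groups 5 and 8. GTTCGA was found in 1 (1.02%), against 1.98% and 0.330%. No member held any of these on the opposite strand. A match describes letters only.

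The same lengths were also tested where the rows had not been selected. In the shoot table of miRBase matches, edgeR's quasi-likelihood test called 21 of 206 sequences of 18 to 20 nt higher under low Pi at an adjusted p under 0.05 (10.2%) and 0 lower (0%). Of these 206, 36 were higher and 15 lower before adjustment (p under 0.05). With DESeq2, 24 of them were higher and 3 lower. At all lengths edgeR called 45 of 484 higher (9.3%) and 6 lower (1.24%). The largest increases among the 21 were pieces of miR399 and miR827, known phosphate-starvation miRNAs. For example ttttgttggttgtcatct, of miR827, rose by 5.19 on the log2 scale (edgeR adjusted p = 0.000863). Pieces of other families, among them miR169, miR396 and miR6300, were also called higher. The miR169 piece ggcagtctccttggctacc rose by 3.95, more than some of the miR399 and miR827 pieces. The median log2 difference of the 206 was 0.04, and 107 of them were higher under low Pi. Within the miRBase reads, those of 18 to 20 nt made up 9.25%, 9.25% and 8.50% under low Pi and 7.67%, 7.47% and 7.61% in control, a difference of 1.42 percentage points with a two-sided exact permutation p of 0.1, the smallest that 3 against 3 libraries allow.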

How the data were processed

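Small RNAs were extracted from shoots and roots, cut from a gel by size and sequenced as single reads from TruSeq libraries. The authors trimmed adapters and kept reads of 18 to 25 nt in CLC Genomics Workbench, of a version not given in the sources used here. A deposited count tells how often 1 distinct sequence was read in a library, and the deposited RPM is that count per 1000000 kept reads. Sequences matching miRBase release 22 on the same strand without mismatch form a separate table. The other table holds only sequences under the authors' Bonferroni threshold; their p-values and fold changes were not used. Another 36 columns of per-sample values were left out: 18 repeat the counts and 18 belong to the root miRBase table.

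Library totals were recovered as count divided by RPM. Ratios are of mean RPM, without a pseudocount, and no test was made on the 98 members. Counts of the shoot miRBase table were tested with edgeR 4.0.16 in R 4.3.3 (quasi-likelihood, filterByExpr at a minimum count of 10, library size equal to the recovered total, Benjamini-Hochberg at 0.05), after a check on simulated data. DESeq2 1.42.0 was an alternative. The members, motifs and groups were chosen with earlier results of these data known. Named sequences were the most abundant of each overlap group, all of group 1, the 5 largest and 5 smallest ratios, the 5 most abundant, those shared with root, and lower ones with at least 10 RPM in control; others that are named were chosen after their values were seen. Fragments were not placed on a genome. Classes such as tRNA are from the study's supplementary annotation or, for group 1, from its text, and were not checked. That text disagrees with the annotation for tRNAs in shoot. Pots are separate cultures, and p-values measure the spread between them.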

Additional observations from a re-analysis of the deposited data

How the results depend on the processing

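No paired analysis was possible because the low-Pi shoot libraries are numbered 4 to 6 and the controls 16 to 18. The 93 higher and 5 lower members, and the 98 without overlap, were the same in number under each leave-one-out, with TMM factors from the miRBase table and per reads of that table. The ratio of the members' sums lay between 4.43 and 5.70 when 1 library was left out, and between 3.78 and 4.31 without the most abundant member, an alternative added after seeing the data. Per reads of the miRBase table, the ratio of group 8 was 2.17. The number of 18- to 20-nt miRBase sequences called lower, 0 in the test reported, was 1 with TMM factors, 1 without a filter, 3 with DESeq2 and from 0 to 3 with 1 library left out (3 without low-Pi replicate 6, which also gave 27 higher; the range of the higher count was 14 to 27). The cause was not tested. The share of 18- to 20-nt reads differed by 1.29 to 1.67 percentage points with 1 library left out (smallest possible p 0.2) and by 1.25 without miR6300. The 43 overlap groups became 42 with a shared run of 12 nt, 44 with 16 nt and 55 without the rule of 1 edit. Depth limits the ratios of members with 1 to 3 control reads most.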
